A study of Mus musculus with 36 samples.

Results

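Integrin and laminin genes were described across the 12 RNA sequencing libraries of a 3T3-L1 study. They were chosen by name alone: every row of the expression table whose mouse symbol starts with Itga or Itgb and a digit or one of the letters a, d, e, l, m, v and x, or with Lama, Lamb or Lamc and a digit. The rule found 42 of 52505 genes. Of these, 37 are the integrin subunits (18 alpha, 8 beta) and laminin chains (11), and 5 only share the start of the symbol (Itgbl1, Itgb1bp1, Itgb1bp2, Itgb3bp and Itgb2l).

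3T3-L1 is an established mouse preadipocyte line that forms fat cells when given a hormone cocktail. The libraries came from 4 groups of 3. They were zfp217-/- cells at day 2 and wild-type cells at day 2 of the cocktail (named MDI in the labels and made up of DEX, isobutyl-methylxanthine, insulin and indometacin), then zfp217-/- cells at day 0 and wild-type cells at day 0. All were grown in the same serum-containing medium, and the labels give the same treatment entry for both days. The labels do not say how the knockout was made, whether it is 1 clone, or whether replicates were separate cultures, so the p-values speak of the spread among these libraries alone.

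Zfp217, the zinc-finger gene named in the labels, averaged 22.6 ± 0.858 FPKM in KO and 15.1 ± 0.369 FPKM in WT libraries at day 2, and 26.0 ± 0.883 FPKM in KO and 22.0 ± 0.279 FPKM in WT libraries at day 0 (SD, n = 3 each). Its transcript was therefore not lower in the libraries labelled KO, and a gene-level value does not check a small edit. KO and WT below stand for the libraries labelled so, and each direction rests on those labels. Depth was 18073258 to 23114994 reads per library, recovered from the steps of the FPKM values. WT day 0 replicate 3 stood apart, with 23 genes at least 4-fold away from both other libraries of its group, against 1 to 5 in the other 11 libraries. Without it, 17 members were called in KO minus WT at day 0, as with it, against 80.2% and 82.4% of all tested genes. Of 9 adipocyte markers 8 reached a mean of 1 FPKM, with 1 at 0 in all libraries, and their summed level was 365 to 378 FPKM in KO and 8306 to 8498 FPKM in WT at day 2, and 193 to 204 FPKM in KO and 65.8 to 70.8 FPKM in WT at day 0. Lpl alone made up most of the sum in KO (273 FPKM at day 2, 190 FPKM at day 0) and in WT at day 0 (55.9 FPKM). Pparg was lower in KO at day 0, with 2.85 FPKM against 10.2 FPKM in WT. Every other adipocyte marker averaged at most 1.96 FPKM at day 0 (Fabp4 in KO), and none of these was lower in KO. Of 10 preadipocyte or fibroblast markers 9 reached a mean of 1 FPKM, with sums of 6393 to 6667 FPKM in KO and 1060 to 1080.3 FPKM in WT at day 2, and 26590 to 27264 FPKM in KO and 8339 to 8579 FPKM in WT at day 0. Col1a1, Col1a2 and Col3a1 made up most of the sum in every group, and they recur below among the integrin ligands. Thy1 had 538 FPKM in KO and 519 FPKM in WT at day 0. Lum was lower in KO at day 2, with 0.249 FPKM against 0.450 FPKM in WT. None of the 8 endothelial, 8 epithelial or 8 muscle markers reached 1 FPKM as a mean over the 12 libraries. Fewer cells of a type and less RNA per cell cannot be told apart in bulk RNA.

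Integrins are receptors made of an alpha and a beta chain that span the cell membrane and tie the matrix outside to actin inside. The alpha chain largely sets the ligand: alpha 5 and alpha V bind the RGD motif of fibronectin and related proteins, whereas alpha 3, alpha 6 and alpha 7 bind laminins. Laminins are heterotrimers of an alpha, a beta and a gamma chain and form the sheet of the basement membrane that surrounds each mature fat cell. Preadipocytes lie in a fibronectin-rich matrix and remodel it into a basement membrane as they become fat cells, and a change in the main alpha chain, alpha 5 to alpha 6, is known from cultured preadipocytes.

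The promoters of 4 genes are shown, because the laminin chains beta 1 and beta 2 moved apart and alpha 5 and alpha V are the main RGD-binding chains here. Each is the window of 250 bases before to 50 after a start in RefSeq (GRCm38.p6), which need not be the outer end of the gene model, 5′ to 3′, with matches to the GC box GGGCGG in capitals (on either strand, so also as CCGCCC). The window of Lamb1 is chr12:31265043-31265342 on the plus strand, 63.7% G or C. That of Lamb2 is chr9:108479612-108479911 on the plus strand, 44.0% G or C. That of Itga5 is chr15:103366742-103367041 on the minus strand, 58.7% G or C. That of Itgav is chr2:83724147-83724446 on the plus strand, 67.3% G or C, which begins inside the gene model printed further on.
Lamb1: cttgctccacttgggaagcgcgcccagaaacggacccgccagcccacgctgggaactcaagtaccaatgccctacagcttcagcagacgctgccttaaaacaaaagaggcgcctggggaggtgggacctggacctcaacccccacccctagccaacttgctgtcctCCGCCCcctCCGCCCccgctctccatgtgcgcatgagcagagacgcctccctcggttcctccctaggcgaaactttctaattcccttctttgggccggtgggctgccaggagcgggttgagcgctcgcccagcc
Lamb2: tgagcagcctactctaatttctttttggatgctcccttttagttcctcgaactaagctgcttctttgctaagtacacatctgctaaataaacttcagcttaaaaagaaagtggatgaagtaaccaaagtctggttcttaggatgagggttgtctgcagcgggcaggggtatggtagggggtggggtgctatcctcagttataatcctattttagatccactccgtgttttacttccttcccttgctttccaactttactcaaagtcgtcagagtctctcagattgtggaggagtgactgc
Itga5: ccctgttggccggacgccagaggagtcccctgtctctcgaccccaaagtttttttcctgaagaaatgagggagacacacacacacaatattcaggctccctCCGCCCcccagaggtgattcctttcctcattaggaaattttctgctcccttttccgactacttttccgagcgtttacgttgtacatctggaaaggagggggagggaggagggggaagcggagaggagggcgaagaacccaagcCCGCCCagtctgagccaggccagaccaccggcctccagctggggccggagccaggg
Itgav: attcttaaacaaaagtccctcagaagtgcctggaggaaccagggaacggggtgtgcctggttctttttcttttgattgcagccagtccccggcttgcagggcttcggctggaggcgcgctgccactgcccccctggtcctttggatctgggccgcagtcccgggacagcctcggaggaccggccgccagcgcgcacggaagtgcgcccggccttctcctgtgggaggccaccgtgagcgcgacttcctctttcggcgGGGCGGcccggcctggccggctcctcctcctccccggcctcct
Lamb1 and Itga5 each held 2 GC boxes, Itgav held 1, and Lamb2 held none. RefSeq windows were found for 27 of the 42 members (30 windows), and 13 of the 30 held GGGCGG, against 35.7% of all 32851 windows of this length. TATAAA was in none of the 30 and in 13.6% of all windows. The AP-1 letters TGANTCA were in 3 windows, those of Itga3, Itga9 and Itgax, and in 7.81% of all, and the C/EBP letters TTGCNNAA were in none of the 30 and in 10.8% of all. Both strands were searched, and the windows shown held none of the other motifs, so no overlap arose there. Windows were not used here for Itga6, Itga7, Lama4 and Lamc1.

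At day 2 of the cocktail, the libraries labelled KO held less of the laminin-binding chains Itga6 and Itga7 and of laminin chains Lamb1 and Lamc1 than WT libraries, and more of the RGD-binding chains Itga5, Itgav and Itga2b, of Itgb1 and of Lamb2. At day 0 they held less Itga5, Itgav and Itga6 and more Itgb1, Itgb5, Itga2b and laminin chains Lama4, Lamb1, Lamb2 and Lamc1. The laminin-binding chain Itga3 was called lower in KO at day 0 and slightly higher at day 2, and the day 2 call was lost under several settings. Genes averaging 1 FPKM or more across the 12 libraries were tested on log2(FPKM + 1) with limma, with p-values adjusted by Benjamini-Hochberg over all 12961 such genes and a threshold of 0.05. Of the 42 members 21 passed that filter (6 alpha, 6 beta and 5 laminin genes and 4 with a similar name). At day 2, 19 of the 21 were called, 12 higher and 7 lower in KO, where 81.4% of all tested genes were called (40.8% higher, 40.6% lower). At day 0, 17 of the 21 were called, 11 higher and 6 lower in KO, where 82.4% of all genes were called (38.3% higher, 44.2% lower). Both counts were near the background, so calls alone do not set these genes apart. Calls with at least a 2-fold ratio of group means numbered 9 at day 2 (6 higher, 3 lower), against 31.3% of all genes (17% higher, 14.2% lower). Such calls numbered 9 at day 0 (7 higher, 2 lower), against 28% of all genes (13.7% higher, 14.3% lower). The 3 KO and 3 WT libraries did not overlap for 18 of the 21 at day 2, against 82.2% of all genes, and for 18 at day 0, against 84%. The median of the 21 was 0.36 at day 2 and 0.23 at day 0 on the log2(FPKM + 1) scale, where the median of all tested genes was 0.00 at day 2 and -0.06 at day 0.

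**Figure D1:**
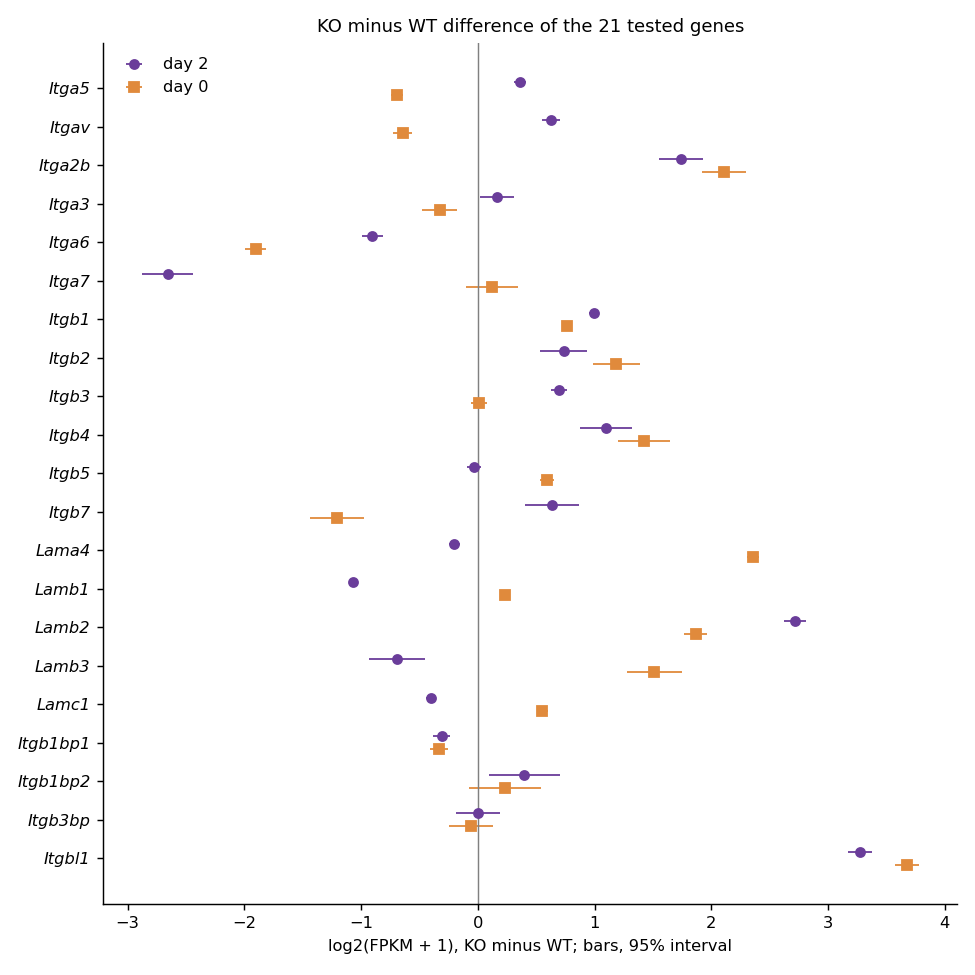
KO minus WT difference in log2(FPKM + 1) of the 21 tested genes, with day 2 as circles and day 0 as squares, bars showing the 95% interval of the moderated fit. Points right of 0 are higher in KO: Itga5, Itgav, Itga3, Itgb7, Lama4, Lamb1, Lamb3 and Lamc1 were called on both days with opposite signs, with Lama4 at -0.20 at day 2 and 2.36 at day 0. Under quantile scaling the day 2 values of Itga3 (-0.22, called lower) and Lama4 (0.05, not called) turned sign.

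By day 2, Itga6, Lamb1 and Lamc1 rose in both genotypes, and Itgav, Itga2b, Itgb1 and Lamb2 fell in both. Itga7 and Lama4 rose and Itga5 fell in WT. In KO, Lama4 and Itga5 showed no called change, and Itga7 was called slightly lower (-0.24, adjusted p = 0.047), a call lost under several settings. In KO, 17 of the 21 genes were called, 5 higher and 12 lower at day 2, where 72.7% of all genes were (33.9% higher, 38.8% lower). In WT, 20 were called, 6 higher and 14 lower at day 2, where 80.7% of all genes were (34.2% higher, 46.5% lower). The difference between the 2 responses, tested as the interaction, was called for 17 of the 21, with 8 positive and 9 negative, against 73.8% of all genes (40.8% positive, 33% negative). Among the negative calls, those of Itgb2 and Itgbl1 turned positive with a pseudocount of 0.1. By ratio of group mean FPKM, Itgb2 fell 4.42-fold in KO and 20.0-fold in WT. On that scale Itgbl1 fell 8.08-fold in KO and 14.7-fold in WT. At least 2-fold changes were called for 9 genes in KO (1 higher and 8 lower at day 2, where 7.65% and 9.34% of all genes were) and for 15 in WT (30.2% of all genes). The days did not overlap for 17 genes in KO, against 74.8% of all genes, and for 19 in WT, against 82.2% of all genes. An interaction of at least 2-fold was called for 8 genes, 4 positive and 4 negative, against 12.8% and 8.71% of all genes. A positive interaction means a higher day 2 minus day 0 value in KO than in WT.

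**Figure D2:**
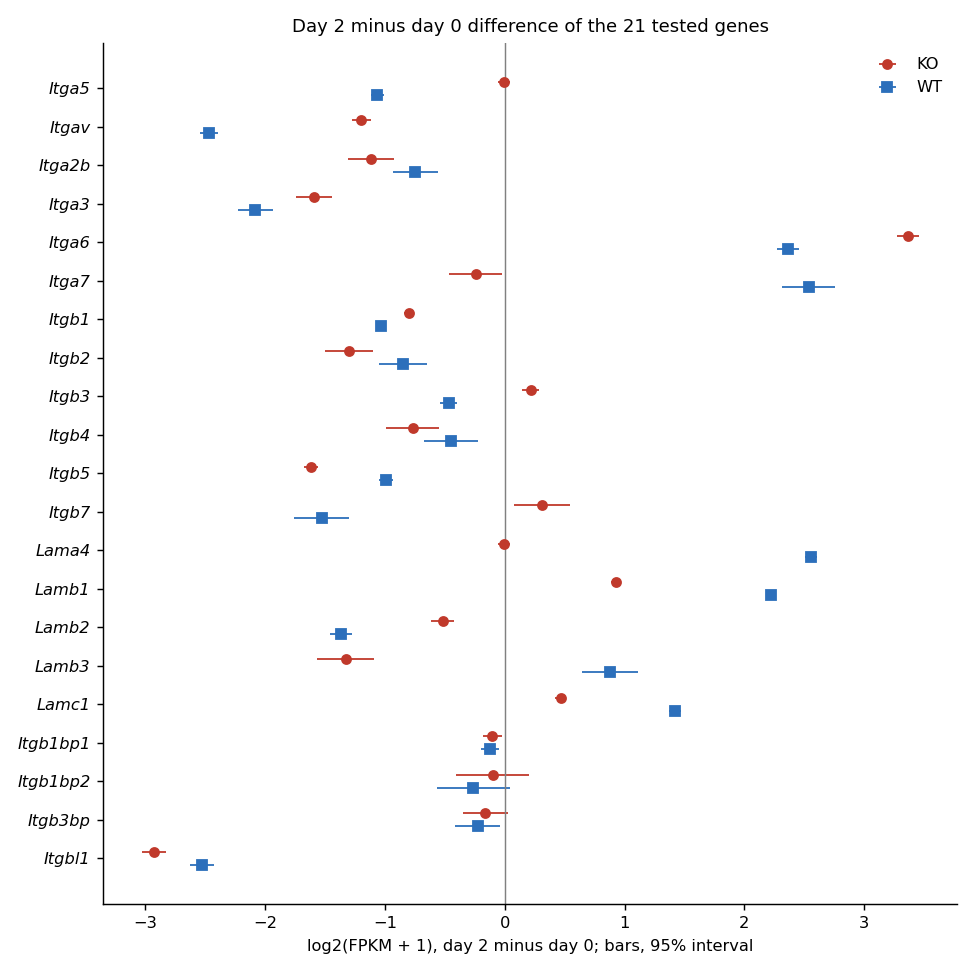
Day 2 minus day 0 difference in log2(FPKM + 1) of the same 21 genes in KO (circles) and WT libraries (squares), bars showing the 95% interval. Lama4 and Itga5 lie at 0 in KO and far from 0 in WT, whereas Itga6 lies right of 0 in both and further right in KO, 3.37 against 2.36.

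Among the RGD-binding alpha chains, Itga5 (chromosome 15, 103344286 to 103366791, GRCm38.p6), the alpha 5 chain of the main fibronectin receptor, fell in WT and showed no called change in KO. At day 2, Itga5 had 49.6, 50.1 and 48.8 FPKM in KO libraries, against 38.3, 39.2 and 37.6 FPKM in WT libraries. At day 0, Itga5 had 50.2, 49.7 and 49.5 FPKM in KO libraries, against 82.1, 79.7 and 81.6 FPKM in WT libraries. The 2 KO groups overlapped each other, lay above WT day 2 and lay below WT day 0. The KO minus WT difference was 0.36 (SE 0.023, adjusted p = 2.01e-08) at day 2 and -0.69 (SE 0.023, adjusted p = 5.04e-11) at day 0. The day 2 minus day 0 change was -0.01 in KO, which was not called (95% interval -0.06 to 0.04, adjusted p = 0.764), and -1.06 in WT, 2.12-fold lower. The interaction was 1.05 (SE 0.032, adjusted p = 5.07e-11).

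Itgav (chromosome 2, 83722303 to 83806917), the alpha V chain that binds fibronectin, vitronectin and osteopontin, fell in both genotypes and less in KO. It averaged 39.2 ± 2.08 FPKM in KO and 25.0 ± 0.103 FPKM in WT at day 2, and 91.1 ± 2.47 FPKM in KO and 143 ± 3.22 FPKM in WT at day 0 (SD, n = 3 each). KO was thus 1.57-fold higher at day 2 and 1.57-fold lower at day 0, with log2 differences of 0.63 (SE 0.035, adjusted p = 6.82e-09) and -0.65 (SE 0.035, adjusted p = 5.49e-09). The fall by day 2 was 2.32-fold in KO and 5.71-fold in WT, with an interaction of 1.27 (SE 0.050, adjusted p = 4.51e-10).

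Itga2b (chromosome 11, 102453297 to 102469883), the alpha IIb chain known from the platelet fibrinogen receptor, was higher in KO on both days. At day 2, Itga2b had 17.5, 16.4 and 16.1 FPKM in KO libraries, against 3.72, 4.25 and 4.98 FPKM in WT libraries. At day 0, Itga2b had 35.6, 38.7 and 37.7 FPKM in KO libraries, against 7.04, 8.74 and 7.93 FPKM in WT libraries. All KO libraries lay above all WT libraries of either day. On the log2 scale, KO minus WT was 1.74 (SE 0.086, adjusted p = 1.93e-09) at day 2 and 2.11 (SE 0.086, adjusted p = 3.43e-10) at day 0. Itga8, an RGD-binding chain that pairs with beta 1, stayed under the filter, with 0.757 ± 0.139 FPKM in KO and 0.0367 ± 0.0122 FPKM in WT at day 2, and 1.32 ± 0.226 FPKM in KO and 0.224 ± 0.00542 FPKM in WT at day 0.

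Among the laminin-binding alpha chains, Itga6 (chromosome 2, 71786886 to 71858427), which pairs with beta 1 or beta 4, was lower in KO on both days and rose in both genotypes. At day 2, Itga6 had 95.7, 93.7 and 91.8 FPKM in KO libraries, against 174, 175 and 179 FPKM in WT libraries. At day 0, Itga6 had 8.24, 8.80 and 7.56 FPKM in KO libraries, against 33.5, 33.0 and 33.6 FPKM in WT libraries. The 4 groups did not overlap, and the order was WT day 2, KO day 2, WT day 0 and KO day 0 from high to low. KO was 1.88-fold lower at day 2 and 4.07-fold lower at day 0, with log2 differences of -0.90 (SE 0.041, adjusted p = 7.57e-10) and -1.90 (SE 0.041, adjusted p = 1.12e-12). By day 2 it rose 11.4-fold in KO and 5.28-fold in WT. The interaction of 1.00 (SE 0.057, adjusted p = 1.39e-08) was positive, so the rise was larger in KO on the log scale, while the KO level at day 2 stayed below that of WT.

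Itga7 (chromosome 10, 128933421 to 128958286), the alpha 7 chain best known as the laminin receptor of muscle, was high in WT at day 2 alone among the 4 groups. At day 2, Itga7 had 1.07, 0.932 and 0.910 FPKM in KO libraries, against 11.9, 11.3 and 11.1 FPKM in WT libraries. At day 0, Itga7 had 1.46, 1.55 and 1.01 FPKM in KO libraries, against 1.25, 1.29 and 0.904 FPKM in WT libraries. The 3 WT day 2 libraries lay far above the other 9, which overlapped across groups. KO minus WT was -2.66 (SE 0.10, adjusted p = 1.49e-10) at day 2, 11.8-fold lower. At day 0 it was 0.12 (SE 0.10, adjusted p = 0.274), not called, and it was called without KO day 0 replicate 3 (0.23, adjusted p = 0.037) and turned to -0.06 under quantile scaling. The rise by day 2 was 9.96-fold in WT, 2.54 (SE 0.10, adjusted p = 2.14e-10). In KO the change was -0.24 (SE 0.10, adjusted p = 0.047), and it missed the threshold (adjusted p = 0.0501 to 0.168) whenever any single library was left out other than KO day 0 replicate 3, WT day 0 replicate 2 and WT day 0 replicate 3. That call was also lost with no filter, under median-of-ratios and quantile scaling, with only the compared libraries and by voom (adjusted p = 0.0566 to 0.109). The interaction was -2.78 (SE 0.14, adjusted p = 4.75e-09). Adipocyte markers were also highest in WT day 2 libraries, and their part in this value was not tested. The gene model of Itga7 overlaps the noncoding gene Gm46186 over 14461 bases, and the strand setting of the counts is not given in the sources used here.

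Itga3 (chromosome 11, 95044475 to 95076844), a laminin receptor chain of epithelia, fell in both genotypes to 0.688 ± 0.0289 FPKM in KO and 0.508 ± 0.0884 FPKM in WT at day 2, against 4.09 ± 0.229 FPKM in KO and 5.38 ± 0.222 FPKM in WT at day 0. The KO minus WT difference was -0.33 (SE 0.068, adjusted p = 7.65e-04) at day 0. At day 2 it was 0.16 (SE 0.068, adjusted p = 0.0414), a call that was lost (adjusted p = 0.0513 to 0.124) on leaving out any single library other than KO day 0 replicates 2 and 3 and WT day 2 replicate 3. It was also lost with a replicate block (adjusted p = 0.062), with no filter (adjusted p = 0.108) and with only the compared libraries in the fit (adjusted p = 0.102). Under quantile scaling the difference turned to -0.22 and was called lower in KO (adjusted p = 0.00906).

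The balance of alpha chains was read as a ratio and as shares within each library, as a description. The ratio of Itga6 to Itga5 FPKM was 1.89 ± 0.0307 in KO and 4.60 ± 0.152 in WT at day 2, and 0.165 ± 0.0122 in KO and 0.412 ± 0.00268 in WT at day 0 (SD, n = 3 each). Itga6 thus exceeded Itga5 in all 6 day 2 libraries and in none of the 6 day 0 libraries, and the ratio was lower in KO on both days with no overlap. The 3 laminin-binding genes held 46.9 ± 0.561% of the summed FPKM of the 18 alpha genes in KO and 73.0 ± 0.244% in WT at day 2, and 6.97 ± 0.586% in KO and 14.5 ± 0.209% in WT at day 0. The 4 RGD-binding genes held 52.2 ± 0.513% in KO and 26.3 ± 0.344% in WT at day 2, and 91.8 ± 0.567% in KO and 84.6 ± 0.207% in WT at day 0. The summed level itself was 203 ± 4.45 FPKM in KO and 257 ± 2.57 FPKM in WT at day 2, and 196 ± 0.696 FPKM in KO and 274 ± 2.80 FPKM in WT at day 0, so within each genotype the makeup moved more than the total. Ratios between genes depend on the gene lengths the authors divided by, which were 2235 bases for Itga6 and 4399 for Itga5 as the values imply. With reads not divided by length the ratio was 0.962 in KO and 2.34 in WT at day 2, and 0.0837 in KO and 0.209 in WT at day 0, so that Itga6 then stayed just below Itga5 in KO at day 2.

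**Figure D3:**
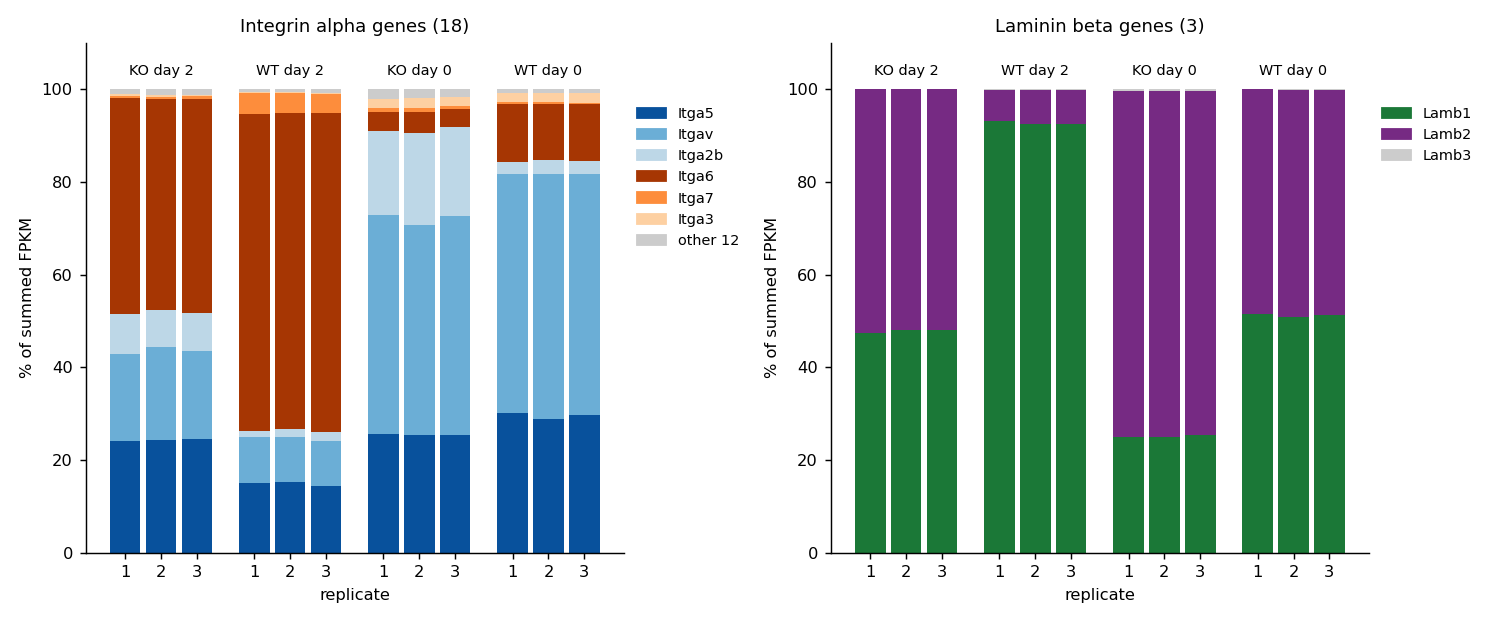
Share of summed FPKM taken by each integrin alpha gene (left) and each laminin beta gene (right) in each of the 12 libraries, in percent, grouped by genotype and day. Laminin-binding alpha genes (orange shades) take 46.9% in KO and 73.0% in WT at day 2, and Lamb1 takes 47.9% in KO and 92.6% in WT at day 2 (66.7% in KO and 96.4% in WT from reads not divided by length).

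The other 11 alpha genes were low. The collagen receptor chains Itga1, Itga2, Itga10 and Itga11 had group means of up to 0.971 FPKM. Itga11, a fibrillar collagen receptor of fibroblasts, averaged 0.0289 ± 0.0206 FPKM in KO and 0.0702 ± 0.0311 FPKM in WT at day 2, and 0.0439 ± 0.0294 FPKM in KO and 0.838 ± 0.0430 FPKM in WT at day 0. Itga10, a cartilage collagen receptor, averaged 0.686 ± 0.0904 FPKM in KO and 0.316 ± 0.0268 FPKM in WT at day 2, and 0.971 ± 0.0705 FPKM in KO and 0.290 ± 0.0459 FPKM in WT at day 0. At day 0 the KO mean was thus below WT for Itga11 and above it for Itga10. Itga4 and Itga9, whose product chains bind fibronectin and other ligands outside the RGD motif, had 11 reads and 1 read over all 12 libraries. The leukocyte chains Itgad, Itgae, Itgal, Itgam and Itgax had group means of at most 0.616 FPKM. With no filter, 20 members below 1 FPKM that had reads entered the test, with 3 higher, 4 lower and 13 not called in KO at day 2, and 6 higher, 5 lower and 9 not called at day 0, where 22.5% of all 30916 genes were called higher and 19.5% lower at day 2, and 23% higher and 21.8% lower at day 0 (44.8% in all). In the WT response 1 of the 20 was called higher and 7 lower at day 2, against 17.3% and 23.9% of all genes, and in the KO response 0 and 6, against 16.6% and 21%. The interaction was called positive for 3 and negative for 4 of the 20, against 19.7% and 17.2% of all genes.

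Among the beta chains, Itgb1 (chromosome 8, 128685654 to 128733579), the common partner of most matrix-binding alpha chains, was the most abundant in every library and higher in KO on both days. At day 2, Itgb1 had 378, 372 and 373 FPKM in KO libraries, against 189, 189 and 185 FPKM in WT libraries. At day 0, Itgb1 had 659, 649 and 651 FPKM in KO libraries, against 387, 389 and 379 FPKM in WT libraries. No groups overlapped, KO lay above WT within each day, and KO day 2 lay just below WT day 0. On the log2 scale, KO minus WT was 0.99 (SE 0.019, adjusted p = 2.63e-13) at day 2 and 0.76 (SE 0.019, adjusted p = 3.57e-12) at day 0. It fell 1.74-fold in KO and 2.05-fold in WT by day 2, with an interaction of 0.23 (SE 0.026, adjusted p = 6.32e-06). Itgb1 made up 80.0 ± 0.0787% of the summed beta FPKM in KO and 68.9 ± 0.376% in WT at day 2, and 73.0 ± 0.676% in KO and 70.0 ± 0.653% in WT at day 0.

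Itgb5 and Itgb3, the partners of alpha V in vitronectin and fibronectin receptors, did not follow one pattern. Itgb5 (chromosome 16, 33829665 to 33949338) averaged 69.9 ± 1.51 FPKM in KO and 71.7 ± 1.18 FPKM in WT at day 2, and 217 ± 6.09 FPKM in KO and 143 ± 3.02 FPKM in WT at day 0. It was higher in KO at day 0, 0.59 (SE 0.027, adjusted p = 9.57e-10). At day 2 the value was -0.04, not called (95% interval -0.10 to 0.02), and the sign turned under TPM (0.01) and quantile scaling (0.08, adjusted p = 0.0113). Itgb3 (chromosome 11, 104608000 to 104670476) averaged 20.4 ± 0.680 FPKM in KO and 12.3 ± 0.231 FPKM in WT at day 2, and 17.5 ± 0.0659 FPKM in KO and 17.3 ± 0.331 FPKM in WT at day 0. It was higher in KO at day 2, 0.69 (SE 0.032, adjusted p = 9.61e-10). At day 0 the value was 0.01, not called (95% interval -0.06 to 0.08), but called higher under TPM (0.11) and quantile scaling (0.14).

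Itgb4 (chromosome 11, 115974725 to 116008412), the partner of alpha 6 in hemidesmosomes of epithelia, was low and higher in KO. At day 2, Itgb4 had 1.62, 1.70 and 1.23 FPKM in KO libraries, against 0.202, 0.132 and 0.179 FPKM in WT libraries. At day 0, Itgb4 had 3.53, 3.59 and 2.76 FPKM in KO libraries, against 0.571, 0.657 and 0.566 FPKM in WT libraries. KO minus WT was 1.10 (SE 0.10, adjusted p = 6.61e-07) at day 2 and 1.42 (SE 0.10, adjusted p = 6.08e-08) at day 0, with no overlap on either day. As a ratio of group mean FPKM the order of the days was reversed, 8.88-fold at day 2 and 5.51-fold at day 0. The epithelial markers summed to at most 0.799 FPKM in any library. The gene model of Itgb4 overlaps the noncoding gene B230344G16Rik over 5718 bases.

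Itgb2 (chromosome 10, 77530329 to 77565708), the beta chain of leukocyte integrins, was higher in KO on both days. At day 2, Itgb2 had 0.843, 0.817 and 0.563 FPKM in KO libraries, against 0.0240, 0 and 0.108 FPKM in WT libraries. At day 0, Itgb2 had 2.98, 3.39 and 3.47 FPKM in KO libraries, against 0.827, 0.975 and 0.837 FPKM in WT libraries. The WT day 2 values rest on 5 reads over 3 libraries, and KO minus WT was 0.74 (SE 0.092, adjusted p = 1.14e-05) at day 2 and 1.19 (SE 0.092, adjusted p = 1.38e-07) at day 0. As a ratio of group mean FPKM, KO was 16.8-fold higher at day 2 and 3.73-fold higher at day 0. Which day showed the wider difference thus depends on the scale. Of 10 leukocyte markers 3 reached a mean of 1 FPKM (Cd14, Cd68 and Lyz2), and the summed level was 12.9 to 14.4 FPKM in KO and 6.62 to 7.89 FPKM in WT at day 2, and 27.2 to 28.6 FPKM in KO and 12.7 to 14.0 FPKM in WT at day 0. This sum is also highest in KO day 0, and its part in the Itgb2 result was not tested. In KO day 0 it rests mostly on Lyz2 (14.8 FPKM) and Cd14 (10.6 FPKM). Cd68 went the other way and was lowest in KO day 0, with 1.69 FPKM against 2.04 FPKM in WT day 0. It averaged 6.09 FPKM in KO and 5.98 FPKM in WT at day 2. The defining leukocyte gene Ptprc had group means of at most 0.144 FPKM, and Adgre1, a macrophage marker, was at 0 in 3 of the 4 groups.

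Itgb7 (chromosome 15, 102215994 to 102233405), a partner of alpha 4 and alpha E in lymphocytes, changed sides between the days. At day 2, Itgb7 had 0.956, 1.26 and 1.13 FPKM in KO libraries, against 0.281, 0.286 and 0.537 FPKM in WT libraries. At day 0, Itgb7 had 0.683, 0.815 and 0.613 FPKM in KO libraries, against 2.72, 2.72 and 3.39 FPKM in WT libraries. The groups did not overlap within either day, with KO above WT at day 2 and below it at day 0. The KO minus WT difference was 0.63 (SE 0.11, adjusted p = 1.45e-04) at day 2 and -1.21 (SE 0.11, adjusted p = 4.41e-07) at day 0. Its day 2 minus day 0 change in KO, 0.31 (adjusted p = 0.0194), was not called without KO day 0 replicate 3 (adjusted p = 0.0643) or without KO day 2 replicate 2 (adjusted p = 0.0703). Itgb6 and Itgb8 had 11 and 35 reads over all 12 libraries, and Itgb8 had none in the 6 KO libraries, where the authors' table lists it at 0.

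Among the laminin chains, Lama4 (chromosome 10, 38965515 to 39110188), the alpha 4 chain of laminins in fat and vessel basement membranes, rose in WT and showed no called change in KO. At day 2, Lama4 had 181, 178 and 175 FPKM in KO libraries, against 199.9, 205 and 209 FPKM in WT libraries. At day 0, Lama4 had 177, 178 and 181 FPKM in KO libraries, against 33.8, 34.7 and 33.7 FPKM in WT libraries. WT day 0 alone was low, and the 2 KO groups overlapped. KO was 5.24-fold higher at day 0, 2.36 (SE 0.023, adjusted p = 3.32e-15). At day 2 the difference was small, -0.20 (SE 0.023, adjusted p = 4.74e-06), with the sign turned under quantile scaling (0.05, adjusted p = 0.122). Lama4 rose 6.01-fold in WT, while in KO the change was -0.0043, not called (95% interval -0.05 to 0.05), although called under median-of-ratios scaling (0.05, adjusted p = 0.0353). The interaction was -2.56 (SE 0.032, adjusted p = 4.99e-14).

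Lama4 took 99.9 ± 0.00826% of the summed laminin alpha FPKM in KO and 99.8 ± 0.0159% in WT at day 2, and 98.6 ± 0.212% in KO and 95.7 ± 0.456% in WT at day 0. Lama2, the alpha chain of muscle laminin, averaged 0.0355 ± 0.0194 FPKM in KO and 0.0446 ± 0.0442 FPKM in WT at day 2, and 1.03 ± 0.131 FPKM in KO and 0.135 ± 0.0511 FPKM in WT at day 0. Lama5, the widespread alpha 5 chain, averaged 0.0701 ± 0.0255 FPKM in KO and 0.384 ± 0.0681 FPKM in WT at day 2, and 1.46 ± 0.233 FPKM in KO and 1.35 ± 0.122 FPKM in WT at day 0. Both missed the filter, as did Lama1 with 5 reads and Lama3 with 41 reads over all 12 libraries.

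The beta chains of laminin moved apart. Lamb1 (chromosome 12, 31265146 to 31329644), the beta 1 chain, rose in both genotypes and less in KO. At day 2, Lamb1 had 316, 311 and 308 FPKM in KO libraries, against 642, 658 and 663 FPKM in WT libraries. At day 0, Lamb1 had 163, 165 and 163 FPKM in KO libraries, against 139, 139 and 139.9 FPKM in WT libraries. No 2 groups overlapped, and WT day 2 was highest. On the log2 scale, KO minus WT was -1.07 (SE 0.018, adjusted p = 1.39e-13) at day 2 and 0.23 (SE 0.018, adjusted p = 2.06e-07) at day 0. The rise was 1.91-fold in KO and 4.69-fold in WT, with an interaction of -1.30 (SE 0.026, adjusted p = 1.63e-12).

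Lamb2 (chromosome 9, 108479847 to 108490530), the beta 2 chain known from kidney and the nerve-muscle junction, was higher in KO on both days and fell in both genotypes. At day 2, Lamb2 had 349, 335 and 333 FPKM in KO libraries, against 46.5, 53.0 and 53.1 FPKM in WT libraries. At day 0, Lamb2 had 486, 493 and 478 FPKM in KO libraries, against 132, 134 and 132 FPKM in WT libraries. Every KO library lay above every WT library, whichever the day. KO was 6.66-fold higher at day 2 and 3.66-fold higher at day 0, with log2 differences of 2.71 (SE 0.043, adjusted p = 7.00e-14) and 1.86 (SE 0.043, adjusted p = 2.24e-12). It fell 1.43-fold in KO and 2.61-fold in WT, with an interaction of 0.85 (SE 0.061, adjusted p = 1.07e-07). The ratio of Lamb1 to Lamb2 FPKM was 0.920 ± 0.0132 in KO and 12.9 ± 0.783 in WT at day 2, and 0.337 ± 0.00412 in KO and 1.05 ± 0.0118 in WT at day 0. The implied lengths behind this ratio were 2570 bases for Lamb1 and 1180 for Lamb2. From reads not divided by length it was 2.00 in KO and 28.1 in WT at day 2, and 0.733 in KO and 2.29 in WT at day 0, so in KO at day 2 whether Lamb1 or Lamb2 was the larger depends on these lengths. The order of the 4 groups was the same on both scales.

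Lamb3 (chromosome 1, 193294353 to 193343878), the beta 3 chain of an epithelial laminin, was low and changed sides. At day 2, Lamb3 had 0.291, 0.514 and 0.341 FPKM in KO libraries, against 1.34, 1.04 and 1.32 FPKM in WT libraries. At day 0, Lamb3 had 2.80, 2.48 and 2.13 FPKM in KO libraries, against 0.101, 0.265 and 0.282 FPKM in WT libraries. KO lay below WT at day 2 and above it at day 0 without overlap, with log2 differences of -0.69 (SE 0.11, adjusted p = 7.99e-05) and 1.51 (SE 0.11, adjusted p = 6.45e-08). The interaction was -2.21 (SE 0.15, adjusted p = 7.66e-08), and the WT day 0 values rest on 25 reads over 3 libraries.

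Lamc1 (chromosome 1, 153218922 to 153332786), the gamma 1 chain found in most laminins, rose in both genotypes and less in KO. At day 2, Lamc1 had 308, 309 and 299.8 FPKM in KO libraries, against 396, 403 and 413 FPKM in WT libraries. At day 0, Lamc1 had 222, 219 and 221 FPKM in KO libraries, against 151, 148 and 151 FPKM in WT libraries. The 4 groups did not overlap. KO minus WT was -0.40 (SE 0.021, adjusted p = 3.33e-09) at day 2 and 0.55 (SE 0.021, adjusted p = 1.83e-10) at day 0. The rise was 1.39-fold in KO and 2.69-fold in WT, with an interaction of -0.95 (SE 0.030, adjusted p = 5.88e-11). Lamc1 held at least 99.0% of the summed laminin gamma FPKM in each group. Lamc3 had 2 reads over all 12 libraries.

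The 11 laminin genes summed to 1135 ± 18.9 FPKM in KO and 1317 ± 27.5 FPKM in WT at day 2, and to 1054 ± 6.55 FPKM in KO and 459 ± 1.05 FPKM in WT at day 0. At day 0 the KO sum was thus above WT, and at day 2 below it, with no overlap of libraries on either day.

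**Figure D4:**
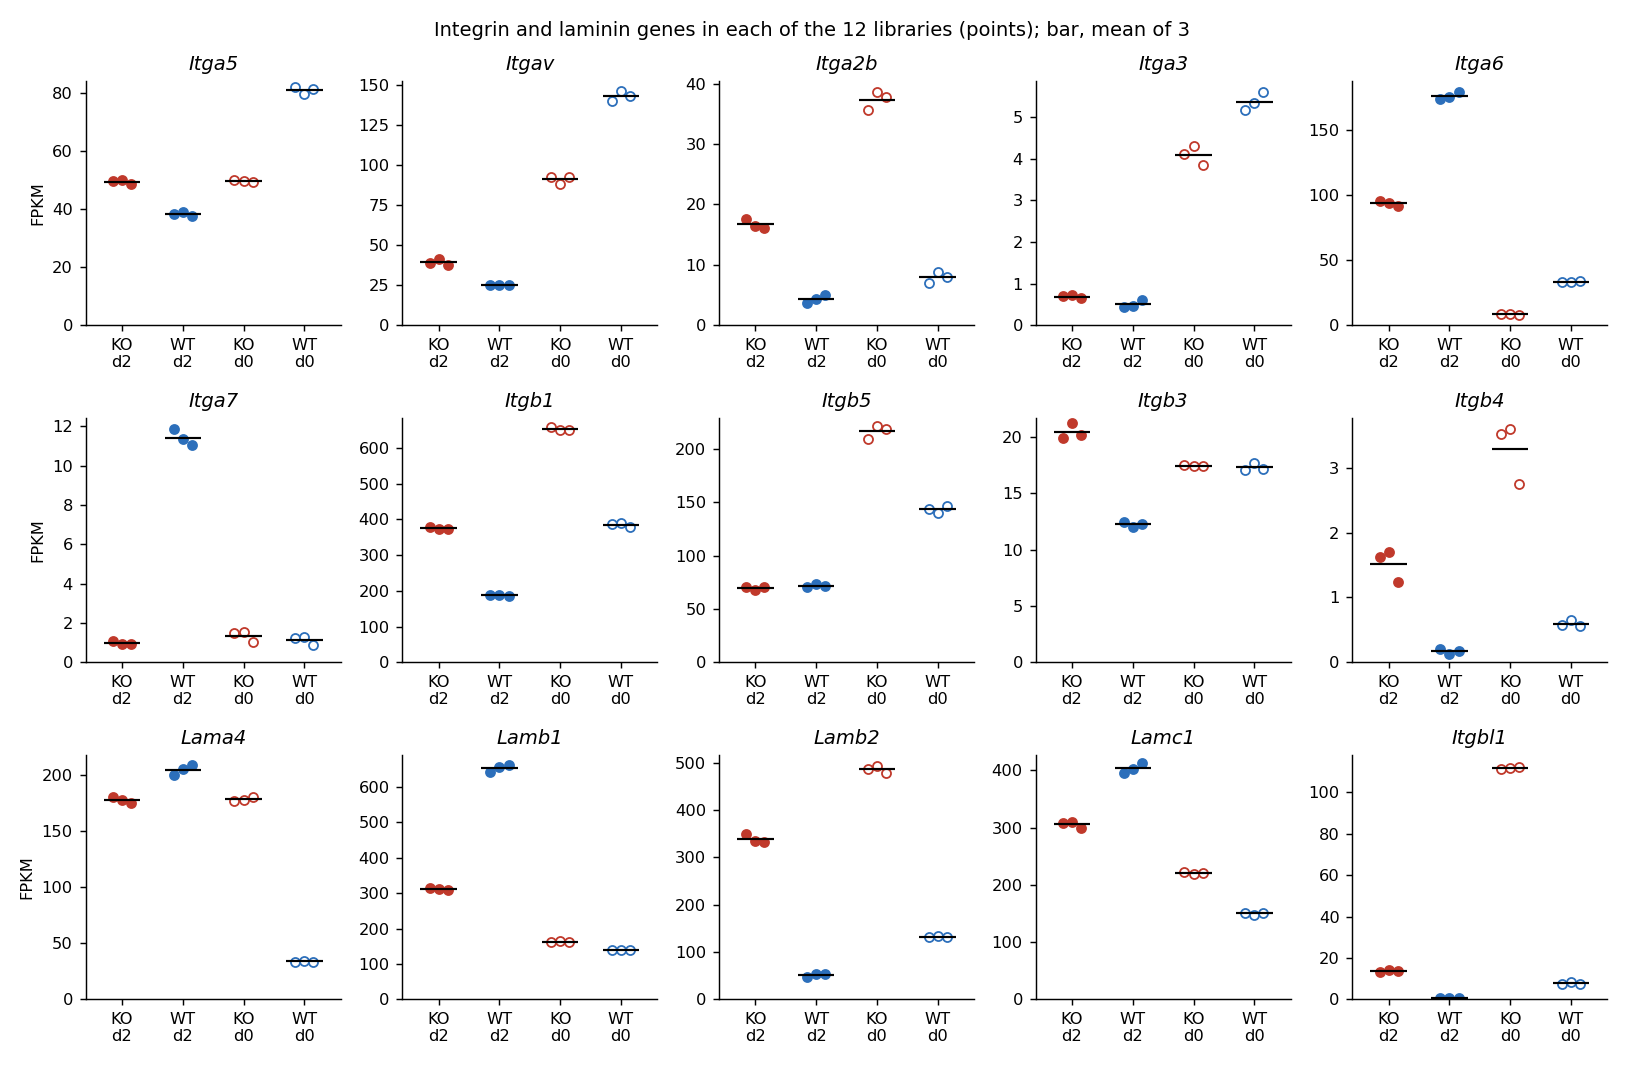
FPKM of 15 integrin and laminin genes in each of the 12 libraries (points, filled at day 2 and open at day 0), with the mean of 3 libraries as a bar and a linear axis from 0 in each panel. Itga7 is high in the 3 WT day 2 libraries alone, Lama4 is low in the 3 WT day 0 libraries alone, and Lamb2 and Itgbl1 are higher in KO on both days.

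The genes that share the start of the symbol include the one with the widest KO minus WT difference of the 21 tested. Itgbl1, which encodes a secreted protein with the cysteine-rich repeats of a beta chain, averaged 13.8 ± 0.526 FPKM in KO and 0.532 ± 0.0603 FPKM in WT at day 2, and 112 ± 0.587 FPKM in KO and 7.83 ± 0.422 FPKM in WT at day 0. The KO minus WT difference was 3.27 (SE 0.046, adjusted p = 2.43e-14) at day 2 and 3.67 (SE 0.046, adjusted p = 1.79e-14) at day 0. Its interaction of -0.40 turned to 0.65 with a pseudocount of 0.1, so which genotype fell more on the log scale depends on that choice. Itgb1bp1, a protein that binds the inner tail of beta 1, was lower in KO, -0.31 (SE 0.035, adjusted p = 4.08e-06) at day 2 and -0.33 (SE 0.035, adjusted p = 2.30e-06) at day 0. Itgb1bp2, known from muscle, was called at day 2, 0.40 (SE 0.14, adjusted p = 0.0196), but not without KO day 2 replicate 1 or 2 or WT day 2 replicate 1 or 2 (adjusted p = 0.0573 to 0.0883), nor with no filter (0.0518), only the compared libraries (0.0562) or quantile scaling (0.393). At day 0 it was 0.23, not called. Itgb3bp, a centromere protein, was 0.00 at day 2 and -0.06 at day 0, neither called. Itgb2l was at 0 in all 12 libraries.

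Fibronectin itself (Fn1), the ligand of alpha 5 beta 1, averaged 1459.8 ± 36.3 FPKM in KO and 246 ± 2.09 FPKM in WT at day 2, and 1794 ± 9.50 FPKM in KO and 1455 ± 26.7 FPKM in WT at day 0. It fell by day 2 by 0.30 in KO and by 2.56 in WT on the log2(FPKM + 1) scale, and both passed (adjusted p = 1.93e-07 and 4.06e-16). The interaction was 2.26, adjusted p = 1.10e-13. Fn1 and Itga5 were thus both higher in KO at day 2, and at day 0 Fn1 was higher (0.30, adjusted p = 1.00e-07) while Itga5 was lower.

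Partner genes were read from 6 lists, whose counts stand against all tested genes: 40.8% were higher and 40.6% lower in KO at day 2, and 38.3% higher and 44.2% lower at day 0, with medians of 0.00 and -0.06. By day 2, 33.9% of all genes were higher and 38.8% lower in KO (median -0.03), and 34.2% higher and 46.5% lower in WT (median -0.11). Of 17 tested interstitial and RGD ligands, 12 were higher and 2 lower in KO at day 2 and 11 higher and 5 lower at day 0, with medians of 0.97 and 0.53 on the log2(FPKM + 1) scale. By day 2, 15 of the 17 were lower in KO (median -1.08) and 15 in WT (median -2.98). Col1a1, a chain of fibrillar collagen I, had 2024 FPKM in KO and 161 FPKM in WT libraries at day 2 (3.64, adjusted p = 2.63e-16). Fbn1, the microfibril protein fibrillin 1, had 59.8 FPKM in KO and 5.69 FPKM in WT libraries at day 2 (3.18, adjusted p = 7.19e-16). Col1a2, the partner chain of Col1a1, was 5.81-fold higher in KO at day 2 and 2.71-fold higher at day 0, and Postn, which encodes periostin, was 2.72-fold higher at day 0. Col3a1, the collagen III chain, had 7789 FPKM in KO and 1082 FPKM in WT libraries at day 0 (2.85, adjusted p = 6.17e-15). The 5 genes that were lower in KO at day 0 were Tgfbi, Ccn1, Ccn2, Spp1 and Thbs1, named after their values were seen. Of 9 tested basement membrane partners of laminin, 6 were higher and 2 lower in KO at day 2 and 8 higher and 1 lower at day 0, with medians of 0.30 and 1.09. By day 2, 2 of the 9 were higher and 4 lower in KO (median -0.10), against 4 higher and 3 lower in WT (median 0.01). Their interaction was called positive for 1 and negative for 7 (median -0.58). Of all tested genes, 40.8% were positive and 33% negative (median 0.06). Col4a2, a chain of the collagen IV network, had 396 FPKM in KO and 186 FPKM in WT libraries at day 0 (1.09, adjusted p = 1.18e-12), and Col4a5 had 37.8 FPKM in KO and 10.9 FPKM in WT libraries at day 2 (1.71, adjusted p = 6.71e-13). Nid2, which encodes nidogen 2, a linker of laminin and collagen IV, had 7.51 FPKM in KO and 1.91 FPKM in WT libraries at day 2 (1.55, adjusted p = 1.08e-09). Sparc, a collagen-binding glycoprotein, was 4.92-fold higher in KO at day 2 and 3.56-fold higher at day 0.

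Of 28 tested genes of the integrin adhesion machinery inside the cell, 20 were higher and 6 lower in KO at day 2 (40.8% and 40.6% of all genes), while 10 were higher and 16 lower at day 0 (38.3% and 44.2%). The medians were 0.42 at day 2 and -0.21 at day 0. By day 2, 8 of the 28 were higher and 15 lower in KO (median -0.09), against 6 higher and 18 lower in WT (median -0.71). Zyx, which encodes the focal adhesion protein zyxin, had 178 FPKM in KO and 53.2 FPKM in WT libraries at day 2 (1.72, adjusted p = 2.00e-14) and 157 FPKM in KO and 487 FPKM in WT libraries at day 0 (-1.62, adjusted p = 5.23e-14). Flna and Actn1, the actin crosslinkers filamin A and alpha-actinin 1, were 2.39-fold and 3.09-fold lower in KO at day 0. Tns3, which encodes tensin 3, was 7.71-fold higher and the scaffold gene Nedd9 was 3.25-fold lower in KO at day 2. Zyx, Flna and Actn1, like Itga5 and Itgav, were higher in KO at day 2 and lower at day 0. Of 12 tested integrin-associated membrane proteins, 9 were higher and 2 lower in KO at day 2 and 7 higher and 4 lower at day 0, and Cav1, the caveolar coat gene, was lower on both days (-1.46, adjusted p = 3.60e-14 at day 2 and -1.84, adjusted p = 1.03e-14 at day 0). Cd82, a tetraspanin gene, and Lrp1, an endocytic receptor gene, were 4.38-fold and 3.39-fold higher in KO at day 2, and Plaur, the urokinase receptor gene, was 3.92-fold lower at day 0. Of 10 other laminin receptors, 8 were higher and 2 lower in KO at day 2 and 6 higher and 4 lower at day 0. Sdc2 and Sdc3, which encode syndecans, were higher in KO on both days, and Sdc4 was lower at day 0 (-1.43, adjusted p = 3.09e-13). Sgce, a sarcoglycan gene, was 2.05-fold higher at day 2. Of 8 integrin ligands on cells, 6 were higher and 1 lower in KO at day 2 and 3 higher and 2 lower at day 0, and Vcam1, a ligand of alpha 4 beta 1, had 20.6 FPKM in KO and 6.96 FPKM in WT libraries at day 2 (1.44, adjusted p = 1.32e-11). Adam23 was 2.94-fold and Jam2 6.02-fold higher in KO at day 2, and at day 0 Adam15 was 2.62-fold and Jam2 2.14-fold higher while Sema7a was 2.75-fold lower.

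**Figure D5:**
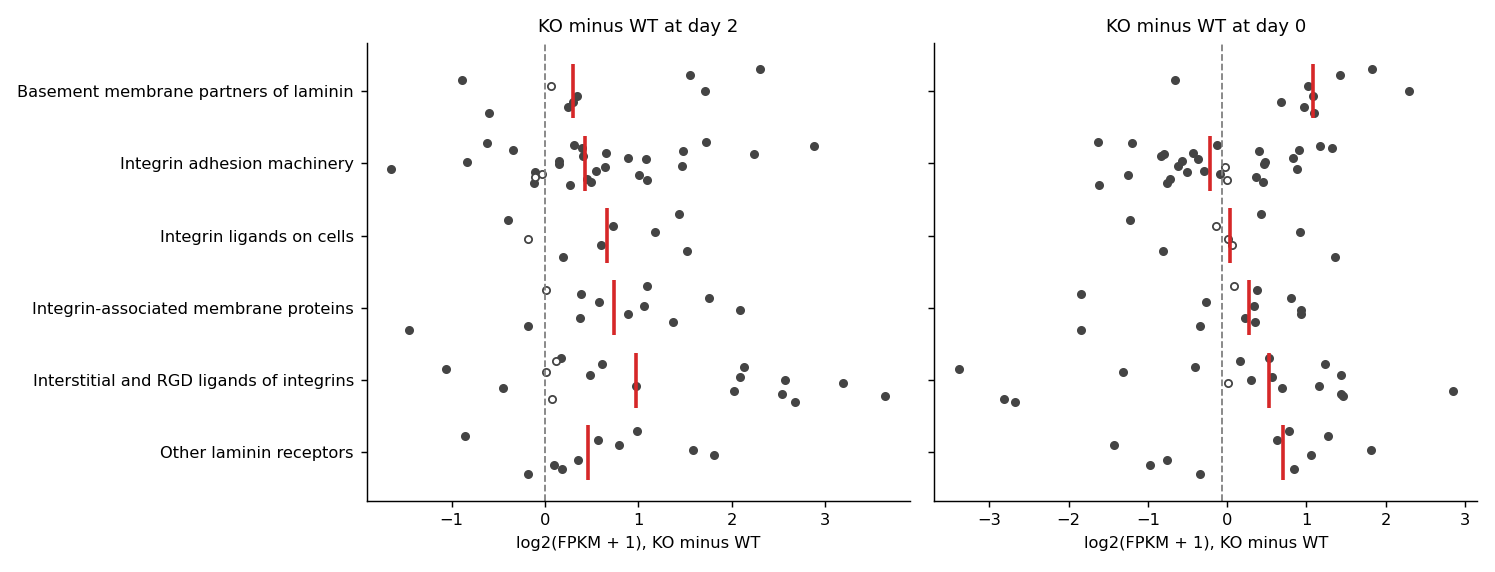
KO minus WT difference in log2(FPKM + 1) of each tested gene in the 6 partner lists at day 2 (left) and day 0 (right), with filled points for genes called by limma, a red line at the list's median and a dashed line at the median of all tested genes. The median of the adhesion machinery lies at 0.42 at day 2 and at -0.21 at day 0.

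The genes whose levels ran most like Itga6 over the 12 libraries, by Pearson's r of log2(FPKM + 1) among 7718 tested genes with at least a 2-fold range of group means, were Cbr2, Slc25a25, Cdc42se1, Fam129b and Limk1, with r of 0.992 to 0.996. Cbr2 averaged 39.0 FPKM in KO and 82.9 FPKM in WT at day 2, and 4.33 FPKM in KO and 15.5 FPKM in WT at day 0. The genes most like Itga7 were Atrn, Sh3glb2, Cbr1, Trarg1 and Ndufab1, with r of 0.994 to 0.995. Trarg1, a fat cell gene tied to glucose transporter traffic, averaged 0.130 FPKM in KO and 8.49 FPKM in WT at day 2, and 0.167 FPKM in KO and 0.115 FPKM in WT at day 0. The 12 libraries fall into 4 groups, so these correlations mostly describe how the group means are spaced. For the genes like Itga7 they rest largely on the high level in WT day 2 libraries.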

How the data were processed

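The deposited table gives FPKM values, fragments scaled to gene length and library depth, which the authors computed for each gene and library. Per the submitters' processing notes, the tools were TopHat2 2.0.12 and Bowtie2 2.2.3, HTSeq 0.6.1, MACS2 2.1.0, BWA 0.7.12, CASAVA and FastQC, on mm10. What each did, the annotation and the strand setting: not given in the sources used here. Total RNA and a NEBNext Ultra RNA kit are in the labels. Of 36 samples, 12 RNA immunoprecipitation libraries and their 12 inputs were not analysed here.

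Values were tested as log2(FPKM + 1) in limma 3.58.1 (R 4.3.3) with a variance trend. All 4 groups of 3 libraries entered 1 fit, over the 12961 genes averaging 1 FPKM or more. Tests were 2-sided, with Benjamini-Hochberg adjustment over all these genes. Fold changes on this scale understate those of low genes, and ratios are of group mean FPKM. Intervals are 95% from the moderated fit. FPKM steps gave whole reads for all 30916 genes above 0, within 0.001 read, and these gave the depth of 18073258 to 23114994 reads and the gene lengths. A further 21589 genes were at 0 in every library. The KO minus WT tests at both days were also run on simulated data. Tables were handled in Python 3.11.15 with pandas 2.3.3 and numpy 2.4.6.

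The members and the partner and marker lists were chosen with earlier results of these data known. Given in every library were Itga5, Itga6, Itga7, Itgb1, Lama4, Lamb1, Lamc1 and each other subunit gene called with at least a 2-fold ratio in a KO minus WT comparison. Partner genes named were Fn1 and the 3 with the smallest adjusted p and at least a 2-fold ratio in each list and comparison. Alternatives were another pseudocount (0.1), other filters (none, or 5 FPKM), 3 other scalings, a replicate block, a fit of only the compared libraries, one without the variance trend, voom on the recovered reads, a 2-fold minimum, and each library left out. The values of 1 low member are not reported here.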

Additional observations from a re-analysis of the deposited data

Results flagged for a closer look

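The following 17 genes stood out because their day 2 minus day 0 response differed between KO and WT libraries by a test of that difference, the interaction in limma with Benjamini-Hochberg adjustment, on the log2(FPKM + 1) scale (KO response minus WT response). At this threshold 73.8% of all tested genes did so. Among the integrin alpha genes the difference was 1.05 for Itga5, 1.27 for Itgav, 0.49 for Itga3, 1.00 for Itga6, -0.37 for Itga2b and -2.78 for Itga7. Itgav fell less in KO and Itga6 rose more, whereas Itga5 fell and Itga7 rose in WT and neither was called so in KO. Among the beta genes it was 0.23 for Itgb1, 0.68 for Itgb3, 1.84 for Itgb7, -0.45 for Itgb2 and -0.63 for Itgb5. Among the laminin genes it was 0.85 for Lamb2, -2.56 for Lama4, -1.30 for Lamb1, -2.21 for Lamb3 and -0.95 for Lamc1. For Itgbl1 it was -0.40. The values of Itgb2 and Itgbl1 turned positive with a smaller pseudocount and by voom on the recovered reads, and by voom both were called positive. Those of Itga2b and Itga3 were not called under every setting.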

How the results depend on the processing

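Over the 105 comparisons of single genes and 2249 alternative values, 2155 kept direction and side of the threshold, 51 lost the call, 11 gained it and 32 turned sign; the cause was not tested. With no filter, 28 genes were called at day 0 (17 higher, 11 lower in KO) and 11 were lower at day 2. Among all 30916 genes, 44.8% were then called at day 0 (23% higher, 21.8% lower) and 19.5% were lower at day 2. Among the 13 genes averaging 5 FPKM or more, 12 were called at day 2 (7 higher), 11 in the KO response (7 lower) and 13 in the WT response (9 lower); fewer genes were tested there, and of all 9692 such genes 86.3% were called at day 2 (41.4% higher), 78.6% in the KO response (39.6% lower) and 86.6% in the WT response (49.5% lower). With a 2-fold minimum, 9 were called at day 2 (6 higher, 3 lower), 9 at day 0 (7 higher, 2 lower), 9 in the KO response (1 higher), 9 lower in the WT response and 8 in the interaction (4 and 4). Among all tested genes, 17% were then higher and 14.2% lower at day 2, and 13.7% and 14.3% at day 0. The share was 7.65% higher in the KO response, 18.6% lower in the WT response, and 12.8% and 8.71% in the interaction. Leaving out 1 library gave 17 to 19 calls at day 2 (10 to 12 higher, 7 lower), 17 to 18 at day 0 (11 to 12 higher, 6 lower), 15 to 17 in the KO response (4 to 5 higher, 10 to 12 lower), 19 to 20 in the WT response (6 higher, 13 to 14 lower) and 17 to 18 in the interaction (8 positive, 9 to 10 negative). Among all tested genes, 79.3% to 81.3% were called at day 2 with 1 library left out, and 80.1% to 82.8% at day 0. The shares were 69.7% to 72.6% in the KO response, 78.4% to 80.9% in the WT response and 71.9% to 72.5% in the interaction. The Itga6 to Itga5 ratio was then 1.88 to 1.90 in KO and 4.51 to 4.66 in WT at day 2, and 0.159 to 0.171 in KO and 0.410 to 0.413 in WT at day 0. The laminin-binding share was 46.7% to 47.2% in KO and 72.9% to 73.2% in WT at day 2, and 6.70% to 7.28% in KO and 14.5% to 14.7% in WT at day 0. From reads not divided by length, an alternative chosen after seeing the data, the ratio was 0.962 in KO and 2.34 in WT at day 2 and 0.0837 in KO and 0.209 in WT at day 0, and the share 38.6% in KO and 63.9% in WT at day 2 and 6.30% in KO and 11.4% in WT at day 0. The Lamb1 to Lamb2 ratio was then 2.00 in KO and 28.1 in WT at day 2 and 0.733 in KO and 2.29 in WT at day 0, and the Lamb1 share of laminin beta 66.7% in KO and 96.4% in WT at day 2 and 42.1% in KO and 69.5% in WT at day 0. Leaving out 1 library gave that ratio in FPKM as 0.915 to 0.927 in KO and 12.4 to 13.1 in WT at day 2 and 0.334 to 0.338 in KO and 1.05 to 1.06 in WT at day 0, and that share as 47.8% to 48.1% in KO and 92.4% to 92.7% in WT at day 2 and 25.0% to 25.2% in KO and 51.1% to 51.4% in WT at day 0.

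Under quantile scaling, which moved the median WT response of all genes to 0.01 from -0.11, signs turned for Itga7 at day 0 (-0.056), Itga3 (-0.22), Itgb5 (0.080), Lama4 (0.050) and Itgb3bp (-0.12) at day 2, the WT response of Itgb1bp1 (0.0028) and Itgb3bp (0.037), and the interaction of Itgb1bp1 (-0.073) and Itgb3bp (-0.059). Among these only Itga3 (adjusted p = 0.00906) and Itgb5 (adjusted p = 0.0113) were called with the turned sign. TPM scaling turned Itgb3bp at day 0 (0.025), Itgb5 at day 2 (0.0088) and the interaction of Itgb1bp1 (-0.039). Median-of-ratios scaling turned Itgb3bp at day 2 (-0.011), the KO response of Itga5 (0.050) and Lama4 (0.054) and the interaction of Itgb1bp1 (-0.019). A pseudocount of 0.1 turned the interaction of Itgb2 (0.81), Itgb4 (0.30) and Itgbl1 (0.65), as did voom on the recovered reads (2.36, 0.66 and 0.85). With the turned sign, Itgbl1 was called under both (adjusted p = 8.17e-05 and 9.63e-05), Itgb2 by voom alone (adjusted p = 0.00293) and Itgb4 under neither. Leaving out 1 library turned sign within -0.060 to 0.074 for Itgb3bp at day 2, -0.016 to 0.0024, -0.18 to 0.013 and -0.016 to 0.0075 for the KO response of Itga5, Itgb1bp2 and Lama4, and -0.0065 to 0.042 for the interaction of Itgb1bp1. Whether replicate numbers pair the libraries was not settled. Correlations of deviations ran from -0.0545 to 0.0869 for same-numbered libraries and from -0.0949 to 0.0583 for differently numbered ones. In WT, day 0 and day 2 libraries of the same number gave 0.0869, 0.0169 and 0.0799, and those of different numbers at most 0.0086. In all, 6 of 12 libraries correlated best with their own number. With a replicate block, 18 were called at day 2, 17 at day 0, 17 in the KO response, 20 in the WT response and 18 in the interaction. In the same order, 81.1%, 82.2%, 72.4%, 80.3% and 73.2% of all tested genes were called with that block. Depth limited the genes with few reads, such as Itgb2 in WT day 2 libraries.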

Other observations

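Several integrin genes lie near each other in the genome (GRCm38.p6, RefSeq). Itga2 and Itga1 lie on chromosome 13 with 25978 bases between them, and both stayed below 1 FPKM in every group. Itgam, Itgax and Itgad lie on chromosome 7, with gaps of 11034 and 23275 bases, and none reached 0.1 FPKM in any group mean. Itga2b and Itgb3, whose products pair in the platelet fibrinogen receptor, lie farther apart on chromosome 11, with 2138116 bases and 40 protein-coding genes between them. At day 0, KO minus WT in limma was 2.11 for Itga2b (called) and 0.01 for Itgb3 (not called), and at day 2 it was 1.74 for Itga2b and 0.69 for Itgb3, both called.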
